A study of Mus musculus with 8 samples.

Results

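The integrins and cadherins of STHdh striatal cells were taken as every array probe whose gene symbol begins with Itga, Itgb, Cdh or Pcdh followed by a digit or further letters. The rule used names only and no measured value, and it gave 140 of the 25697 probes on the array, carrying 105 of its 18120 gene symbols. Of these probes, 25 for 20 genes were detected on at least 1 array, where detected means a deposited detection p-value, which sets a probe against the array's negative controls, under 0.01. The other 115 probes were detected on none.

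Integrins are receptors made of 1 alpha and 1 beta chain that bind the extracellular matrix and tie it, through talin, kindlin and vinculin, to actin. Classical cadherins bind the same cadherin on the neighbouring cell and are anchored to actin by catenins, while clustered protocadherins are made from gene arrays in which each neuron uses a small selection of the variable exons. In the developing striatum both families take part in the migration, sorting and contact of neurons.

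RNA was compared between 4 sets of cells given a Bcl11b plasmid and 4 sets given the empty plasmid (mock), each on 1 Illumina MouseRef-8 v2 array. All 8 sets were wild-type STHdhQ7 progenitor cells, a conditionally immortalized line from embryonic mouse striatum, harvested 2 days after transient transfection. In the Bcl11b group the plasmid pcDNA3.1 carried the cDNA of the beta isoform of mouse Bcl11b, a zinc finger transcription factor of striatal neurons. The sample labels name the control by that plasmid and also as wild-type. A transient transfection reaches only a share of the cells, so each array averages cells with and without the plasmid.

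The single probe for Bcl11b was detected on 0 arrays in either group, so the transfection itself could not be checked from these data. The study states that it assessed transfection in duplicate sets, by counting cells positive for a fluorescent protein and by qPCR of Bcl11b. It also lists Bcl11b among the striatal-enriched genes altered on its arrays. Median deposited signals were 31.6 to 53.9 on the mock arrays and 20.1 to 30.2 on the Bcl11b arrays. Values below are log2 of the quantile-normalized signal, a scale on which probes for different genes cannot be ranked against each other. As a check of the labelled cell type, 0 of 8 markers of medium spiny neurons on the array were detected. The study amplified Ppp1r1b and Rgs9, which are among these markers, from STHdh cells by PCR. Their undetected probes therefore do not show that the cells lack these RNAs. Of the neural progenitor markers, 2 of 4 were detected (Nes and Sox2), and of the pan-neuronal markers 2 of 6 (Mtap2 and Stmn2). Of the mesenchymal markers, 5 of 7 were detected (Col1a1, Col3a1, Pdgfrb, S100a4 and Vim). None of 4 endothelial or 4 glial markers was detected, although the summed endothelial signal, all of it in the background, lay at 4.84 to 5.65 (log2) on mock and 6.58 to 6.83 on Bcl11b arrays. The summed mesenchymal signal overlapped, at 14.69 to 14.88 on mock and 14.55 to 14.85 on Bcl11b arrays, a sum led by Vim. Of its 5 detected genes, the growth factor receptor Pdgfrb was lower on every Bcl11b array than on any mock array and passed the unadjusted rule given below, with a log2 difference of -0.49 (adjusted p = 0.309 from limma), and the other 4 overlapped between the groups. Of the epithelial and leukocyte markers, 1 of 3 (Krt2-8, on 1 Bcl11b array) and 1 of 5 (Cd68, on 2 Bcl11b arrays) were detected, with the pan-leukocyte gene Ptprc detected on none. Cd68 had a log2 signal of 5.14 ± 0.46 (SD, n = 4) on mock and 6.49 ± 0.44 (SD, n = 4) on Bcl11b arrays. It was higher on every Bcl11b array than on any mock array and passed the same unadjusted rule (adjusted p = 0.1865 from limma). Cd68 was detected on Bcl11b arrays only, so the size of its difference was not established. The summed signal of the 5 leukocyte markers overlapped, at 5.90 to 7.12 on mock and 6.41 to 7.52 on Bcl11b arrays. The part of these genes in the results below was not tested.

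Detection of the probes differed between the role groups. An undetected probe does not show that its gene is silent, since some probes of Cdh2 were detected on no array and others on all 8. Of the 140 probes, 17.9% were detected on at least 1 array and 12.9% on all 8, against 45.7% and 36.4% of all probes on the array. Among the integrin alpha chains, all 3 probes for the laminin-binding chains Itga3, Itga6 and Itga7 were detected on all 8 arrays. The chains that bind the RGD motif of fibronectin and vitronectin had 4 of 5 probes detected, for Itga5, Itgav and Itga2b. No probe was detected for the collagen-binding chains (0 of 5), for Itga4 and Itga9 (0 of 2) or for the leukocyte chains (0 of 10). Among the beta chains, 4 of 12 probes were detected, for Itgb1, the common partner of laminin- and fibronectin-binding alpha chains, for Itgb5, which pairs with Itgav as a vitronectin receptor, and for Itgb4, the hemidesmosome chain. Of 6 probes whose symbols begin with Itgb but lie outside Itgb1 to Itgb8, 2 were detected. They were Itgb1bp1, whose protein ICAP-1 binds the cytoplasmic tail of the beta 1 chain, and Itgb4bp, an older name of the ribosome factor Eif6.

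**Figure D1:**
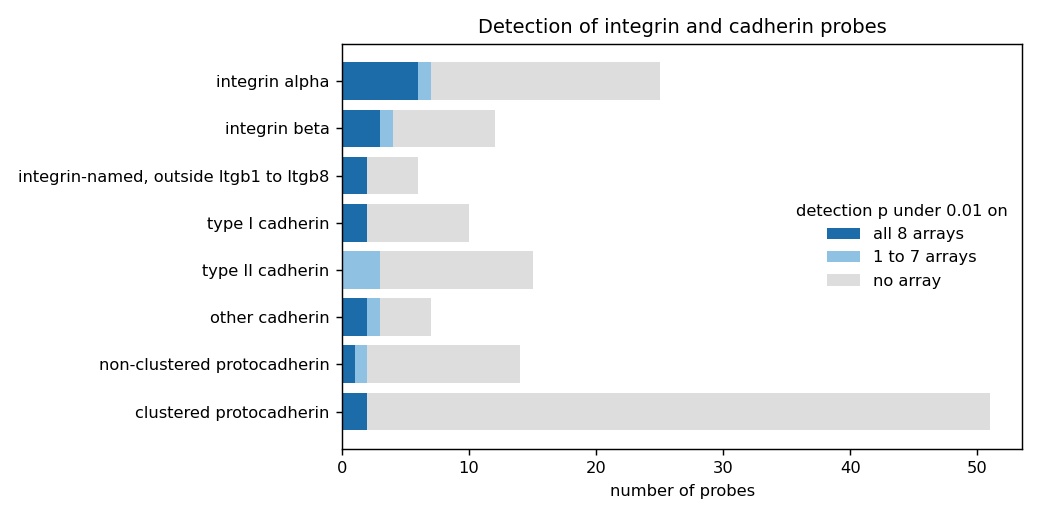
The bars give the number of array probes in each role group of integrins and cadherins (horizontal axis, probes), split into those detected on all 8 arrays, on 1 to 7 arrays and on no array. Clustered protocadherins form the longest bar, with 49 of 51 probes detected on no array.

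Cadherin probes were mostly below detection. The type I cadherins had 2 of 10 probes detected, both for Cdh2 (N-cadherin, the main classical cadherin of neural progenitors and fibroblasts). The type II cadherins had 3 of 15, for Cdh6, Cdh11 and Cdh22, and none of these on all 8 arrays. Of 7 probes for other cadherins, 3 were detected, for Cdh13 (T-cadherin, which is held by a lipid anchor and has no cytoplasmic tail) and Cdh23, the tip-link cadherin of hair cells. Non-clustered protocadherins had 2 of 14 probes detected, both for Pcdh7. Clustered protocadherins had 2 of 51, namely 0 of 9 for the alpha cluster, 1 of 22 for the beta cluster (Pcdhb22) and 1 of 20 for the gamma cluster (Pcdhgb2). The fraction of probes detected in the clusters, 3.92%, was the lowest of the 8 role groups.

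The rule for a difference was a fitted change of at least 25% (higher over lower signal) and an unadjusted limma p-value under 0.05. Between Bcl11b and mock cells, 6 of the 25 detected probes passed it. Of these, 5 were lower in Bcl11b cells (Itgb5, Itga3, Pcdhb22, Pcdhgb2 and Cdh23) and 1 was higher (a probe for Itgb1). These are 20% lower and 4% higher among the members, and over all 11755 detected probes 10.5% were lower and 4.32% higher by the same rule. The difference between these shares was not tested. No detected integrin or cadherin passed an adjusted p-value of 0.10. The single probe of the 140 that did, for Itga11, was detected on no array, and 252 of 25697 probes on the array passed, or 0.981%. For 4 of the 25 detected probes every Bcl11b array was below every mock array, against 7.09% of all detected probes. For 1 every Bcl11b array was above, against 2.97%. Cdh23 entered the count of lower probes, and that of probes below every mock array, only through its detection on mock arrays. Both counts were open to that selection, and the size of its fitted change was not established, as given below. With a filter at detection on at least 4 arrays, which leaves Cdh23 out, 4 members were lower, beside 1157 of all 10622 probes. The share of decreases depended on the scaling, since 70.8% of all detected probes passing the rule were lower after quantile normalization and 48.2% when each array was instead divided by its median signal.

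Over the 18 probes detected on all 8 arrays, the median log2 difference (Bcl11b minus mock) was 0.018, with 10 higher and 8 lower, and over all 9360 such probes it was -0.026. The 9 probes of integrin chains had a median of 0.24 and the 7 of cadherins and protocadherins a median of -0.040. These medians are over probes and not genes, with Itga5 and Itgb1 repeated among the integrin probes and Cdh2 and Cdh13 among the others. The difference between them was not tested.

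**Figure D2:**
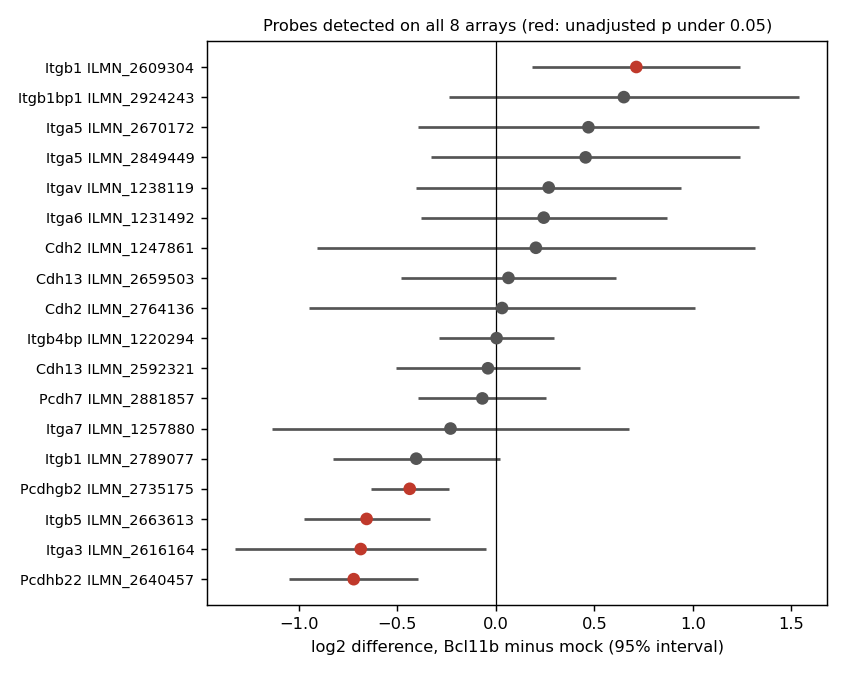
Each point is the log2 difference of 1 probe detected on all 8 arrays, Bcl11b minus mock (horizontal axis, log2 units), with its 95% interval from limma, and red marks an unadjusted p-value under 0.05. The differences run from -0.72 for Pcdhb22 to 0.71 for an Itgb1 probe, and 13 of the 18 intervals include 0.

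The vitronectin receptor chain Itgb5 was lower in Bcl11b cells. In such bulk samples, fewer cells of a type and less RNA per cell cannot be told apart. Its log2 signals (ILMN_2663613) were 11.63, 11.74, 12.09 and 12.06 on the 4 mock arrays and 11.28, 11.34, 11.01 and 11.26 on the 4 Bcl11b arrays. The groups did not overlap. The means were 11.88 ± 0.23 (SD, n = 4) and 11.22 ± 0.15 (SD, n = 4), a log2 difference of -0.66 (standard error 0.13), or a signal 1.58-fold lower. It passed the unadjusted threshold, and its limma adjusted p was 0.153. Its alpha partner Itgav did not pass it, at 9.57 ± 0.46 (SD, n = 4) on mock and 9.84 ± 0.34 (SD, n = 4) on Bcl11b arrays, a log2 difference of 0.27 with a 95% interval from -0.40 to 0.94. When arrays were left out 1 at a time, the difference of Itgb5 lay between -0.74 and -0.58 and passed each time.

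The laminin receptor chain Itga3 was lower on average, with groups that overlapped. Its log2 signals (ILMN_2616164) were 10.78, 10.66, 11.37 and 11.50 on the mock arrays and 10.64, 10.74, 10.06 and 10.13 on the Bcl11b arrays. Mock replicates 3 and 4 were high, Bcl11b replicates 3 and 4 were low, and the other 4 arrays lay together. The log2 difference was -0.69 (standard error 0.26, adjusted p = 0.441 from limma), or a signal 1.61-fold lower. Itga3 no longer passed the unadjusted threshold when any of those 4 arrays was left out, at -0.59 without mock replicate 3, -0.55 without mock replicate 4, -0.57 without Bcl11b replicate 3 and -0.60 without Bcl11b replicate 4. It did not pass with division by the array median either, at -0.59.

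The other laminin-binding chains did not pass the threshold. For Itga6, which pairs with beta 1 or beta 4 chains, the log2 difference was 0.24 with a 95% interval from -0.38 to 0.87. For Itga7, the laminin receptor of muscle and some glial cells, it was -0.23 with an interval from -1.14 to 0.68. The interval of Itga7 includes the value of Itga3 and that of Itga6 does not, and the difference between the chains was not tested.

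The 2 probes of Itgb1 lay in opposite directions. The dimmer one (ILMN_2609304) read 7.22, 8.14, 7.86 and 8.09 on the mock arrays and 8.67, 8.35, 8.65 and 8.49 on the Bcl11b arrays, so that all Bcl11b arrays lay above all mock arrays. Its log2 difference was 0.71 (standard error 0.22, limma adjusted p = 0.324), past the unadjusted threshold. It failed that threshold under the replicate block and also without normalization between arrays, where the difference was 0.0041. The brighter one (ILMN_2789077) read 9.07, 9.27, 9.55 and 9.44 on the mock arrays and 9.15, 8.91, 8.52 and 9.15 on the Bcl11b arrays, groups that overlapped. Its log2 difference was -0.40 (standard error 0.18, adjusted p = 0.505 from limma), which did not pass. It was lower and passed with neqc, without normalization, and without mock replicate 1 or Bcl11b replicate 4. Within each array, the log2 signal of ILMN_2789077 minus that of ILMN_2609304 was 1.51 ± 0.33 (SD, n = 4) on mock arrays and 0.39 ± 0.36 (SD, n = 4) on Bcl11b arrays. The mock values were 1.86, 1.13, 1.69 and 1.34 and the Bcl11b values 0.47, 0.56, -0.14 and 0.66, without overlap. The comparison of this gap was chosen after the values were seen, so no test of it is given, and no direction is given for Itgb1 as a gene. Which part of the transcript each probe targets is not given in the sources used here.

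The fibronectin receptor chain Itga5 had 2 probes that moved alike. Their log2 differences were 0.47 (ILMN_2670172, adjusted p = 0.795 from limma) and 0.46 (ILMN_2849449, adjusted p = 0.763), both within the spread of the mock arrays. On the brighter of them mock replicate 2 read 11.13 and the other mock arrays 9.81 to 10.33, against 10.53 to 11.16 on the Bcl11b arrays. Without mock replicate 2 the differences were 0.76 and 0.74, and both passed the unadjusted threshold. The Itgb1-binding protein gene Itgb1bp1 had a log2 difference of 0.65 (adjusted p = 0.663 from limma), with mock replicate 4 at 9.01 and Bcl11b replicate 4 at 9.71 each the lowest of its group. Without Bcl11b replicate 4 it was 0.90 and passed. For Itgb4bp the difference was 0.0041 with a 95% interval from -0.29 to 0.30.

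**Figure D3:**
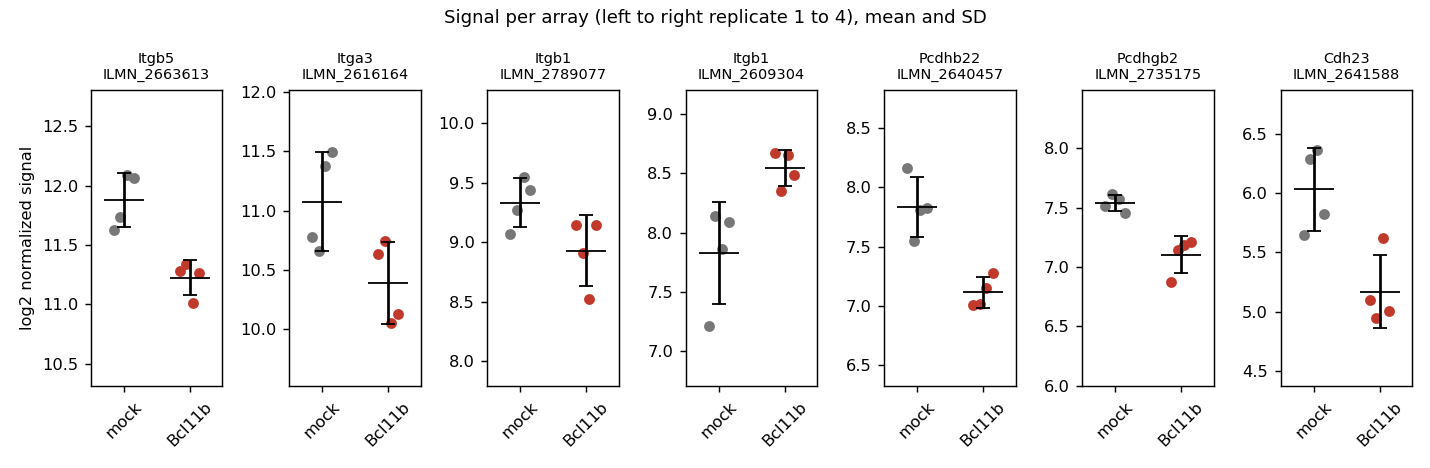
Points are the log2 normalized signal (vertical axis) of single arrays for 7 probes, replicate 1 to 4 from left to right, in mock and in Bcl11b cells, with bars at the mean and SD (n = 4). The panels have their own ranges of the same length; the groups are apart for Itgb5, the dimmer Itgb1 probe, Pcdhb22, Pcdhgb2 and Cdh23 and overlap for Itga3 and the brighter Itgb1 probe.

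Both clustered protocadherins that were detected were lower in Bcl11b cells. Pcdhb22 (ILMN_2640457) read 8.16, 7.55, 7.81 and 7.82 on the mock arrays and 7.01, 7.02, 7.15 and 7.28 on the Bcl11b arrays. Every Bcl11b value was below every mock value, with a log2 difference of -0.72 (standard error 0.14), or 1.65-fold lower. Pcdhgb2 (ILMN_2735175) read 7.52, 7.61, 7.58 and 7.45 on the mock arrays and 6.87, 7.14, 7.18 and 7.21 on the Bcl11b arrays. These groups were apart as well, with a log2 difference of -0.44 (standard error 0.082), or 1.35-fold lower. Each had an adjusted p of 0.128 from limma. Both passed the unadjusted threshold with every array left out in turn, with differences from -0.82 to -0.61 for Pcdhb22 and from -0.47 to -0.36 for Pcdhgb2. The clusters hold paralogs of similar sequence, and gamma protocadherin transcripts share constant exons. Whether these probes tell members of a cluster apart could not be read from the files, so the values belong to the probes and only tentatively to the single genes.

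The non-clustered protocadherin Pcdh7, an adhesion protein of neurons and other cells, did not pass the threshold. Its probe detected on all arrays (ILMN_2881857) had a log2 difference of -0.068 with a 95% interval from -0.39 to 0.26. A dimmer one (ILMN_1256260), detected on 3 arrays of each group, had 0.0065 with an interval from -0.63 to 0.64, and another (ILMN_1234105) was detected on none.

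For N-cadherin the spread among mock arrays exceeded any difference. The mock arrays read 7.498, 9.26, 8.63 and 9.31 on 1 probe (ILMN_1247861) and 8.76, 10.27, 9.41 and 10.25 on the other (ILMN_2764136). On both, mock replicate 1 was the lowest and mock replicates 2 and 4 were the highest. The Bcl11b arrays lay between 8.46 and 9.50 and between 9.35 and 10.30, inside or near the mock range. The log2 differences were 0.20 and 0.032, with 95% intervals from -0.91 to 1.31 and from -0.95 to 1.01. These wide intervals leave changes in either direction possible. The 2 remaining Cdh2 probes (ILMN_2605503 and ILMN_2605504) were detected on no array. T-cadherin had log2 differences of -0.040 (ILMN_2592321, 95% interval -0.51 to 0.43) and 0.064 (ILMN_2659503, 95% interval -0.48 to 0.61).

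Cdh23 was near the limit of detection. The probe that was detected (ILMN_2641588) passed the detection limit on 2 arrays, both of them mock, and read 5.64, 6.29, 6.36 and 5.83 on mock and 5.10, 4.95, 5.62 and 5.002 on Bcl11b arrays. The groups did not overlap, and the probe passed the unadjusted threshold (adjusted p = 0.240 from limma). No fold is given, because the dimmest signal that counted as detected on each Bcl11b array lay above this probe's mean on the mock arrays. A second Cdh23 probe (ILMN_1252019), detected on no array, lay the other way, at 2.97 to 4.50 on mock and 4.61 to 4.86 on Bcl11b arrays. The remaining one (ILMN_2672033) was detected on none either.

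The type II cadherins and the remaining integrins were at the same limit. Itga2b, the platelet alpha chain, and Cdh6 were each detected on 2 arrays of each group, Itgb4 and Cdh22 on 2 mock arrays and 1 Bcl11b array, and Cdh11 on 1 mock array. None of these 5 probes passed the unadjusted threshold. The detected Itgb4 probe (ILMN_3144575) had a log2 difference of -0.17, while another (ILMN_2634689), detected on no array, lay the other way, at 2.13 to 5.13 on mock and 5.67 to 6.35 on Bcl11b arrays. Itga11, a collagen receptor chain, had 3 probes, none detected on any array. One of them (ILMN_2701778) read 2.03 to 5.03 on the mock arrays and was at the floor of the scale, 0, on every Bcl11b array, a difference past the adjusted threshold (limma adjusted p = 0.0809). The other 2 were at the floor on all 8 arrays. Of the 115 undetected probes, 92 were at the floor on at least 1 array, and 8 had an unadjusted p under 0.05, so their differences lie in the background and no fold is given.

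Replicates varied together in some members. Bcl11b replicate 4 was the highest array of its group for 13 of the 18 probes detected on all arrays, against 50% of all 9360 such probes. Mock replicate 2 was the highest for 9 of 18, against 25.1%. Mock arrays had the larger SD for 13 of the 18 probes, or 72.2%, against 63% of all. For 8 of the 9 integrin chain probes the mock SD was the larger.

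**Figure D4:**
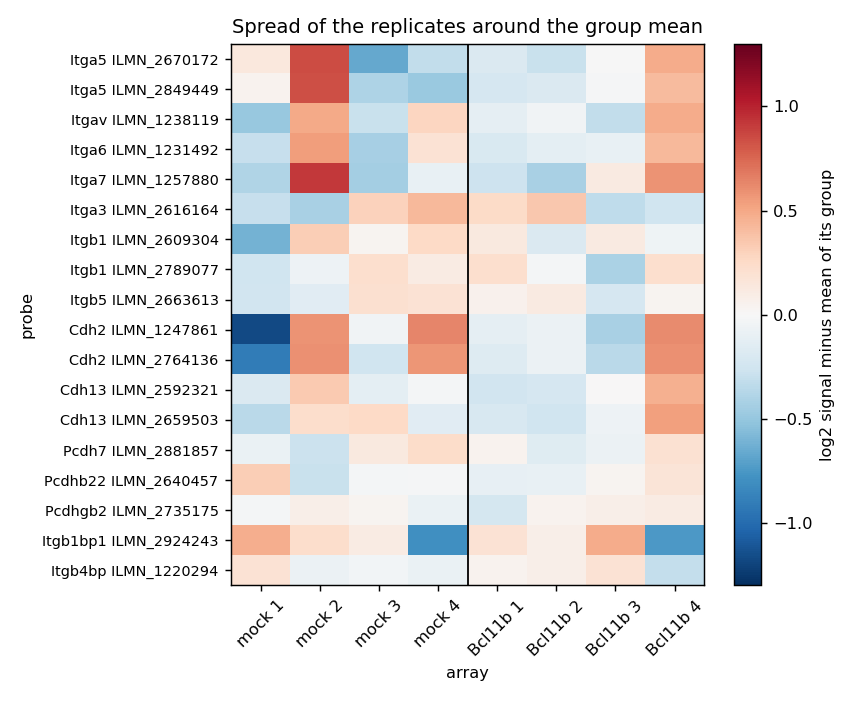
Colours give the log2 signal of each array (horizontal axis) minus the mean of its own group for the 18 probes detected on all arrays (vertical axis), mock to the left of the line and Bcl11b to the right. Cdh2, Itga5 and Itga7 span the widest range among mock arrays, and Bcl11b replicate 4 is above its group mean for most integrin alpha and cadherin probes.

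Among genes that act with integrins inside the cell, 20 of 24 on the array were detected. By the same rule as above 1 was higher, the tyrosine kinase Src with a log2 difference of 0.78 (adjusted p = 0.456 from limma). The 3 that were lower are proteins of focal adhesions, the scaffold Bcar1 (p130Cas) at -0.54, the paxillin relative Tgfb1i1 (Hic-5) at -0.82 and Zyx (zyxin) at -0.40. These are 5% higher and 15% lower of the 20, beside 4.32% and 10.5% of all detected probes. Over the 20, the median difference was -0.070. The integrin activator Tln1 was detected on 4 arrays, and Vcl, Ptk2 and Ilk had differences of -0.0255, -0.097 and -0.25. Src no longer passed with the replicate number as a block. It also failed the rule without mock replicate 1, without mock replicate 4, and without Bcl11b replicate 1, 2 or 3.

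Of 9 catenins and cadherin partners on the array, 3 were detected. Beta-catenin (Ctnnb1), which binds the tail of classical cadherins, had a log2 difference of -0.023 and alpha-catenin (Ctnna1), which links it to actin, one of -0.15. The alpha-catenin relative Ctnnal1, listed on the array as Catnal1, was lower by 0.55 ± 0.10 (standard error) on the log2 scale, at 11.002 ± 0.18 (SD, n = 4) on mock and 10.45 ± 0.11 (SD, n = 4) on Bcl11b arrays, without overlap (adjusted p = 0.115 from limma). Surface partners of integrins had 9 of 10 genes detected, with a median of -0.18. Ligands of integrins had 8 of 11 detected, with a median of 0.0099. By the rule Ctnnal1 was lower, 1 of the 3 detected catenins and partners (33.3%), beside 10.5% of all detected probes. No surface partner or ligand passed the rule. An unadjusted p under 0.05 with a change of less than 25% was found for 4 of the surface partners and ligands. The tetraspanin Cd151, a partner of laminin-binding integrins, was at -0.23, the caveola protein Cav1 at -0.23 and the Itgav ligand Mfge8 at -0.28, while the urokinase receptor Plaur was at 0.27. None of the genes in these 4 lists passed an adjusted p-value of 0.10. Without mock replicate 4 or without Bcl11b replicate 3, 1 gene of these lists was lower by the rule, in place of 4.

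The start sites of detected members can be set beside short motifs. A RefSeq upstream window of 250 bases outside chromosome 18 was at hand for 11 of the 20 detected genes, 12 windows in all. The 5 motifs that the study drew from Bcl11b-bound regions were searched on both strands. The study found few of those regions close to a start site and proposes that Bcl11b acts distally. Windows of 250 bases are therefore not where most of its bound regions lay. The string ACCACA was found in 1 of the 12 windows, against 14.0% of all 32851 windows in the table. The string TGCTTG was in 0 of 12, against 13.7%. The string AGTGCT was in 0 of 12 as well, against 12.6%. The string GGATCA was in 1 of 12 (Pcdh7), against 7.6%. AGAGTG or AGTGTG, counted as the fifth motif, was in 3 of 12 (Cdh22, Cdh23 and Pcdh7), against 25.0%. The AP-1 site TGACTCA was found in 0 of 12, against 4.46%. The GC box GGGCGG, added after the windows had been read, was in 7 of 12, against 32.7%. A longer element related to the GC box, bound by Bcl11b in earlier work, was reported by the study as absent from its bound regions. GGGCGG lay upstream of members lower by the unadjusted rule (Itgb5 and both starts of Itga3) and of others (Itga5, Itgb1, Cdh6 and Cdh22). The window of Cdh23, also lower by that rule, held no GC box. Among the genes of its top bound regions the study names Cdh23. For the lower Pcdhb22 and Pcdhgb2 no window was searched. These are descriptions of letters in a short window, and a string that is missing here may lie elsewhere in the gene.

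The upstream windows of Itgb5 and Itga3 are shown because these are the integrin chains that were lower by the unadjusted rule. For Itga3 the groups overlapped and the rule was not passed in every setting. The windows are in build GRCm38.p6 and written in the direction of the gene. Itgb5 starts on the plus strand after chr16:33829415-33829664. Capitals mark the GC box, which reads CCGCCC where it lies on the other strand, at -199, -63 and -34 from the start site.

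Itgb5: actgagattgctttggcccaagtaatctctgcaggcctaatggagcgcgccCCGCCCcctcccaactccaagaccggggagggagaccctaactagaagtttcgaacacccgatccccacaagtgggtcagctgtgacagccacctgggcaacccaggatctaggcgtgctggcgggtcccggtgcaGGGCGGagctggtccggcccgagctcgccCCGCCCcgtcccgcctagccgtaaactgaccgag

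Itga3 is on the minus strand and has 2 RefSeq starts. The window of the first, chr11:95076715-95076964, holds a GC box at -178, -144 and -35. That of the second, chr11:95069199-95069448, holds a GC box at -246 and, at -73, TGTGGT, which is ACCACA on the other strand. The capitals mark these strings, and none of the strings overlap.

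Itga3 first start: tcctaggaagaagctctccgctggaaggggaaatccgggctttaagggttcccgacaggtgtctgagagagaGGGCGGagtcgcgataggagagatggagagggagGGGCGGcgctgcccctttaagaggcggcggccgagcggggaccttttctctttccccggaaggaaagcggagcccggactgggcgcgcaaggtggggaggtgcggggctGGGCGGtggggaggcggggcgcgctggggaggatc
Itga3 second start: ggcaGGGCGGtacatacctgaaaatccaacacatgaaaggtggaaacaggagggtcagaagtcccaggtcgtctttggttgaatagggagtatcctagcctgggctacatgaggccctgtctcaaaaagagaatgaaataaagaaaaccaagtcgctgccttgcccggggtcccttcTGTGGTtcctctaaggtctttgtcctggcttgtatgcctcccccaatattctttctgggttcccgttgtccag

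Of the 3 windows, the GC content was 65.2% for Itgb5 and 67.6% and 50.8% for the first and second starts of Itga3. Itgb1, whose 2 probes disagreed, had 1 GC box at -151 in a window of 68% GC, and Itga5 had 2, while Itgav and Itgb1bp1 had none of the strings.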

How the data were processed

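RNA from 8 sets of STHdh cells was hybridized to 8 arrays, 4 per group, and the sample titles gave the group and replicate number. The authors deposited a background-subtracted bead intensity, averaged over the beads of a probe in GenomeStudio and not normalized between arrays, with a detection p-value. On each array 30.6% to 31.6% of the signals were at or below 0.

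Signals were quantile-normalized, as in the study's methods, set to at least 1, put on the log2 scale and compared with limma 3.58.1 in R 4.3.3 (lmFit and eBayes, no covariate) over all 25697 probes with Benjamini-Hochberg adjustment. The floor sets the size of changes of dim probes, so probes detected on no array got no fold. Where 1 group had no detected array, the dimmest detected signal of each of its arrays stood in for the dim probe if higher. Whether the sets were separate cultures is stated only as different sets of transfected cells, so p-values measure the spread between these arrays, and their number limits the precision. The procedure was run on simulated data whose noise was drawn independently for each probe and array. Deviations that probes share within an array were not part of that test.

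The members, role groups, companion lists and markers were chosen with earlier results of these data known. Named members were all those detected on all 8 arrays or with p under 0.05 on at least 1 detected array, the other probes of these genes, Cdh23 and Itga11. A listed gene with several probes was represented by its brightest, and 11 list genes were matched through older symbols. Itgb4, the other members detected on few arrays and the companion genes given with values were named after their values were seen.

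Alternatives were no normalization, neqc, scaling of each array by its median, adding an offset of 16, a filter at 4 arrays, the replicate number as a block, trend and robust eBayes, arrayWeights, a detection limit of 0.05, and each array left out. Same-numbered arrays deviated together with correlations of 0.68, -0.63, 0.18 and 0.70 over 9360 probes, so the numbers were not taken to pair them. Upstream sequences and symbols came from RefSeq tables of GRCm38.p6. The binding experiments and probe sequences of the study were not analysed here.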

Additional observations from a re-analysis of the deposited data

Results flagged for a closer look

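In 20 member probes and 40 groups of 4 arrays examined for a value far from the other 3, 1 was found, where chance gives about 1 in 20. For the laminin-binding chain Itga6 (ILMN_1231492), Bcl11b replicate 4 had a log2 signal of 10.34, against 9.72 to 9.81 on the other Bcl11b arrays. The same array was the highest of its group for 13 of the 18 members detected on all arrays.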

How the results depend on the processing

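The lower signals of Itgb5, Pcdhb22 and Pcdhgb2 kept their direction and an unadjusted p under 0.05 in 16 of 16 other settings. The block, the filter at 4 arrays and trend and robust eBayes leave the difference itself unchanged. Without normalization 99.4% of all detected probes passing the rule were lower. Direction in these settings was therefore no check. The Cdh23 probe, detected on mock arrays only, was no longer tested with the filter at 4 arrays. Itga3 kept its direction in 16 but passed in 10, and the dimmer Itgb1 probe in 14 of 16, failing without normalization (0.0041) and with the replicate block. The cause was not tested for any value that moved.

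Member probes past an adjusted p of 0.10 numbered 0 with division by the array median, the offset, trend and robust eBayes or the block, 3 with arrayWeights (Itga11, Itgb5 and Pcdhb22), 4 with neqc (the undetected Itgb4 probe ILMN_2634689, Itgb5, Pcdhb22 and Pcdhgb2), and 0 to 3 with an array left out, the 3 without mock replicate 2 being Itga11, Pcdhac1 and Pcdhb22. With the filter at 4 arrays it was Pcdhb22, without Bcl11b replicate 1 it was Pcdhgb2 and without normalization it was Cdh23. Itgb4 and Pcdhac1 are named after their values were seen. Detected members higher by the unadjusted rule numbered 0 without normalization, 2 with arrayWeights, and 1 to 3 with an array left out, 3 without mock replicate 2 and 2 without Bcl11b replicate 4. Those lower numbered 9 without normalization and 4 to 6 with an array left out. Companion genes, 1 higher and 4 lower as reported, numbered 0 and 22 without normalization, 4 and 2 with division by the median and 0 and 2 with the block. With arrayWeights 2 were higher, and with an array left out 0 to 4 were higher (4 without mock replicate 2) and 1 to 5 lower (1 without mock replicate 4 or Bcl11b replicate 3). At a detection limit of 0.05, 15 member probes were detected on 1 to 7 arrays, in place of 7, 22 on all and 103 on none.

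Without normalization the median of all detected probes was -0.68, and the differences turned negative for Itga5 (-0.24 and -0.23), Itga6 (-0.45), Itgav (-0.42), Itgb1bp1 (-0.037), Itgb4bp (-0.39), the dimmer Pcdh7 probe (-0.72), the dimmer Cdh13 probe (-0.67) and Cdh2 (-0.49 and -0.65). With arrayWeights the dimmer Cdh13 probe was at -0.11 and Cdh2 at -0.047 and -0.19, and with division by the median the brighter Cdh13 probe was at 0.0095. With an array left out, values that changed sign ranged from -0.43 to 0.077 for Itga7, -0.058 to 0.11 for Itgb4bp, -0.16 to 0.20 and -0.16 to 0.011 for the dimmer and brighter Pcdh7 probes, -0.19 to 0.073 and -0.11 to 0.15 for the brighter and dimmer Cdh13 probes, and -0.19 to 0.42 and -0.27 to 0.23 for ILMN_1247861 and ILMN_2764136 of Cdh2. None of these passed the unadjusted threshold as reported.

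Whether arrays that share a replicate number belong together is not stated in the labels. With the number as a block, 4 detected members were lower and 1 was higher, the latter Itgb1bp1 and not Itgb1, and Itga3 at -0.69 did not pass. The mock and Bcl11b arrays of number 1 correlated best with each other, as did those of number 4, while those of numbers 2 and 3 did not. A pairing of some arrays was therefore not settled.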
